A study of Mus musculus with 13 samples.

Results

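The 9 genes described here encode phosphatases that restrain signalling from the T cell receptor and from its ERK branch: Dusp2, Dusp4, Dusp5, Dusp6, Ptpn2, Ptpn6, Ptpn7, Ptpn11 and Ptpn22. They were chosen by name from the 19752 mouse genes measured, each through the probe set annotated with that symbol alone, and the brighter one on average was taken for Ptpn2, the only member with more than 1 probe set. RNA came from thymocytes of 2-week-old mice of mixed sex, purified on a cell sorter and hybridised to Affymetrix gene arrays, with 1 array per sample and 13 arrays. The V2 groups are immature γδ thymocytes, which carried the γδ receptor with its Vγ2 chain and high HSA and lacked CD4 and CD8, from Sox4 conditional knockout (cKO) mice (4 arrays) or wild-type (WT) mice (4 arrays by label, 3 of them in the fit). The DP groups are CD4 CD8 double positive thymocytes, the main stage of the αβ lineage, from cKO mice (3 arrays by label, 2 in the fit) or WT mice (2 arrays). Sox4 encodes an HMG box transcription factor, and the labels name neither the Cre driver nor the strain. Nor do they tie replicates to separate animals, so the p-values below are set against a spread between arrays that may be technical in part.

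When the T cell receptor is engaged, the kinases Lck and Fyn phosphorylate its CD3 chains, Zap70 is recruited, and adaptors pass the signal to Ras and on to the kinase ERK. The tyrosine phosphatases of the Ptpn group remove phosphate from the early kinases and adaptors or from ERK, and the dual-specificity phosphatases of the Dusp group remove it from ERK and its relatives. Several Dusp genes are themselves induced by ERK and so form a feedback loop, while in thymocytes the microRNA miR-181a is known for lowering Dusp5, Dusp6, Ptpn22 and Ptpn11 and thereby raising sensitivity of the receptor.

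The mature miR-181 microRNAs are shown because 4 of the 9 genes are known targets of miR-181a and because transcripts of a miR-181 locus separated V2 from DP arrays. All 4 mature sequences (RefSeq, GRCm38.p6) share 1 seed, bases 2 to 8, given in capitals; that of miR-181a is made from loci on chromosomes 1 and 2.
mmu-miR-181a-5p: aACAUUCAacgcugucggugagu
mmu-miR-181b-5p: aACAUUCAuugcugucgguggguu
mmu-miR-181c-5p: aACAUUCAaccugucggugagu
mmu-miR-181d-5p: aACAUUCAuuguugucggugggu

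The promoters of Dusp5 and Dusp6 are shown as those of the members whose products act mainly on ERK. Each is given as the 250 bases before the start of the gene on the plus strand (RefSeq, GRCm38.p6), with CArG boxes in capitals.
Dusp5, chr19:53528895-53529144: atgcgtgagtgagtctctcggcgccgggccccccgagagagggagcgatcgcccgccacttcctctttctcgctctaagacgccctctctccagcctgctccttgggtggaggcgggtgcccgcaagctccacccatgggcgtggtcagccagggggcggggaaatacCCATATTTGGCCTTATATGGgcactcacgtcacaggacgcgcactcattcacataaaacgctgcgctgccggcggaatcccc
Dusp6, chr10:99262981-99263230: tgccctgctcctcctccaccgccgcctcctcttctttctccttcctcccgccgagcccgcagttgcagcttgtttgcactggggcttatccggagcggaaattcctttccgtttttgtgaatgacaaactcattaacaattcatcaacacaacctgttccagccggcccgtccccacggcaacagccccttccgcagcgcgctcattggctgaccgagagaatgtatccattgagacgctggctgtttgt
The Dusp5 promoter holds 2 adjacent CArG boxes, the site of serum response factor, which acts downstream of ERK, at -82 to -73 and -72 to -63 from the start. A CArG box on either strand was found in 1.47% of 32851 promoter windows of this length. The Dusp5 window also held 1 match to the ETS core GGAAGT, in lower case here, which 19.7% of windows hold. The Dusp6 window held none of the motifs searched, which were the CArG box, the SOX cores ACAAAG and ACAATG, the cyclic AMP element TGACGTCA, and the ETS cores CCGGAAG and GGAAGT, the last pair of which can overlap. The search also covered windows of Dusp2, Ptpn6, Ptpn7, Ptpn11 and Ptpn22. A Ptpn22 window held 2 matches to the SOX core ACAAAG, which 16.5% of windows hold, and another Ptpn22 window 2 to GGAAGT. Ptpn11 held 1 cyclic AMP element (1.55% of windows) and 1 ETS core CCGGAAG (6.91%), and Ptpn6 held 2 matches to GGAAGT. Windows of Dusp2 and Ptpn7 held none of the motifs. These matches describe letters and not binding.

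The V2 titles are written in 2 ways, V2imm (2 cKO and 2 WT arrays) and immV2 (2 cKO and, by label, 2 WT arrays), and whether this marks a batch is not stated, so a term for it stood in the fit. The 6 measured V2 markers, genes such as Sox13 and Maf, summed to an intensity of 5490 to 9794 in V2 cKO arrays and 12460 to 13170 in V2 WT arrays, against 809.7 to 858.6 in DP cKO and 706.7 to 720.9 in DP WT arrays. The 7 DP markers, which include Cd4, Cd8a and Rag1, summed to 1143 to 1497 in V2 cKO and 1019 to 1165 in V2 WT arrays, against 32280 to 35640 in DP cKO and 31720 to 36750 in DP WT arrays. On 2 arrays these sums went against the label: DP cKO replicate 5 had 14190 for V2 and 1017 for DP markers, and V2 WT replicate 5 of the immV2 titles had 791 for V2 and 36060 for DP markers. Both arrays are shown apart and left out of the fit of 11 arrays. The count of members called, and each difference of a member called in that fit, are also given for all 13 arrays as labelled. For the further lists of the pathway only the counts called are given for all 13 arrays. Sox4 itself had a log2 intensity of 8.07 to 9.60 in V2 cKO, 8.64 to 9.68 in V2 WT, 8.68 to 8.74 in DP cKO and 8.55 to 9.37 in DP WT arrays and passed the test in neither population. In V2, 3 of 4 cKO arrays lay below every WT array, and V2 cKO replicate 5 (V2imm), at 9.60, was at the WT level. Arrays are grouped by their labelled genotype throughout, and results that turn on that array are given without it. Median intensity was 122.2 to 137.2 per array. Precision is limited by how few arrays there are.

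All 9 genes were measured well inside the range of the arrays. Their log2 intensities ran from 7.38 (Dusp4, DP cKO replicate 3) to 11.4 (Ptpn7, DP cKO replicate 5), above the log2 median of every array (at most 7.10). Levels of different genes are read by different probes and are not set against each other. The plot of each gene by array shows the separation of V2 from DP in Ptpn2, Dusp5 and, with some overlap, Dusp6, and the wide spread of Dusp4 and Dusp2 among V2 arrays.

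**Figure D1:**
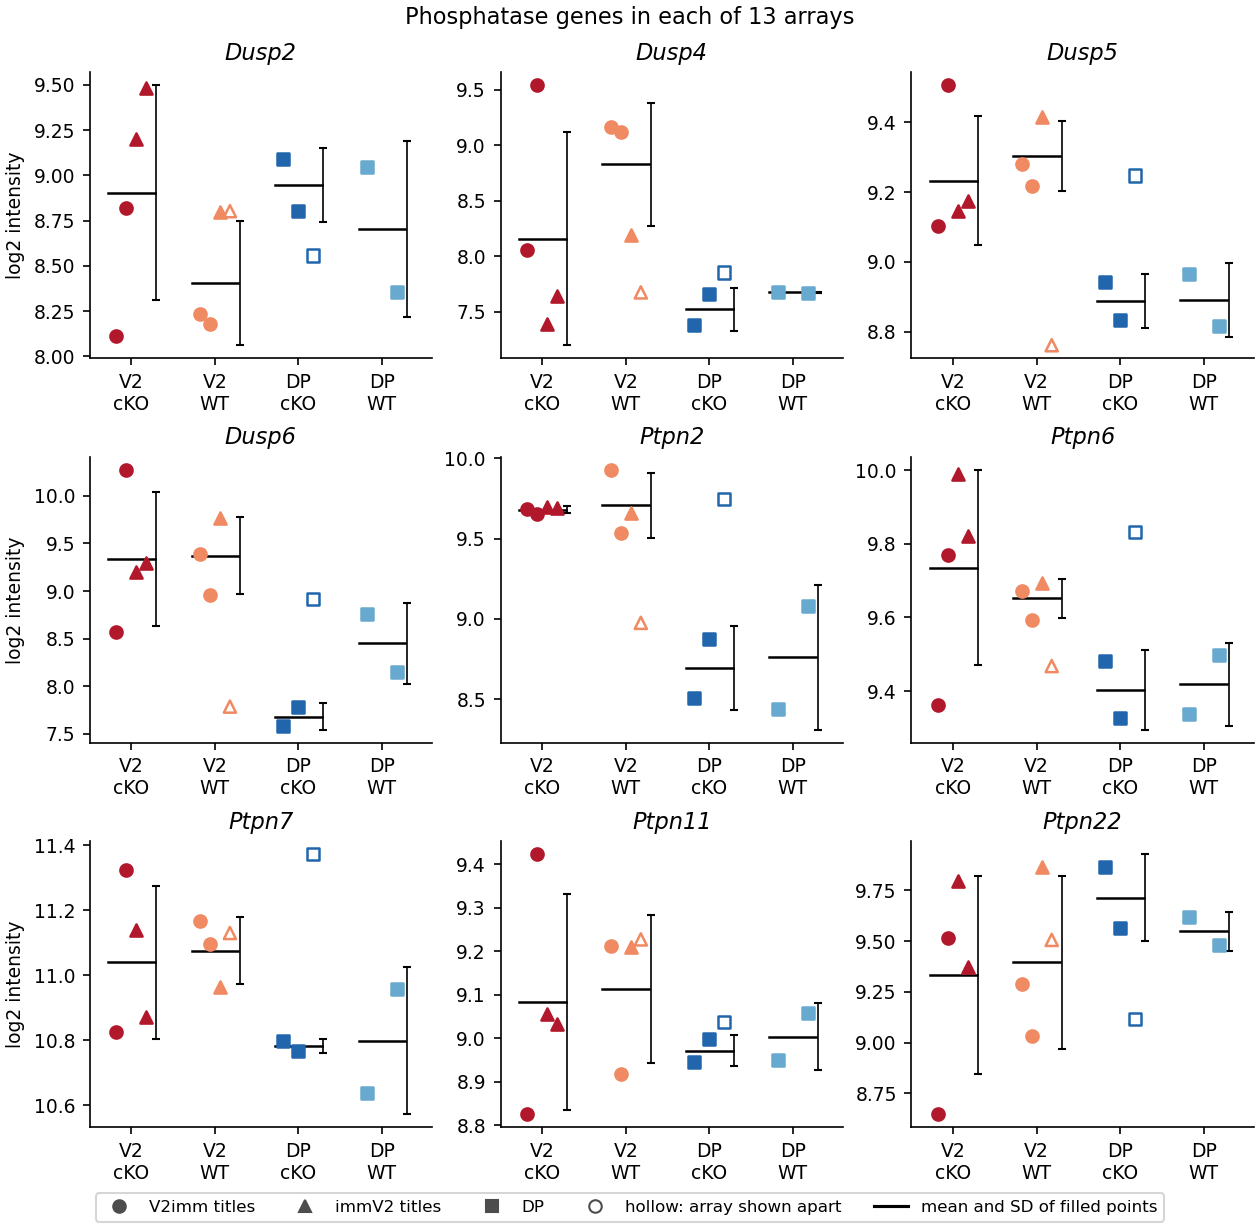
Log2 intensity of each of the 9 genes in all 13 arrays, by group; circles are V2 arrays with V2imm titles, triangles those with immV2 titles, squares DP arrays, and hollow symbols the 2 arrays shown apart. Bars give mean and SD of the filled points; Ptpn2 lies at 9.53 or above in every V2 array of the fit and at 9.08 or below in every DP array.

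Of the 9 genes, Ptpn2 was higher in V2 than in DP cells in both genotypes, and Dusp6 in cKO cells. A gene is called when its adjusted p, from limma over 19752 genes, is under 0.05. By that rule 2 of 9 members were called between V2 cKO and DP cKO, both higher, where 5.45% of all genes were called and 3.5% were called as higher. Between V2 WT and DP WT 1 of 9 members was called, as higher, where 4.87% of all genes were called and 3.2% were called as higher. The 2 comparisons use different arrays. The median difference of the 9 members was 0.33 log2 units in cKO cells, against -0.01 over all genes, and 0.27 in WT cells, against -0.02 over all genes. With all 13 arrays as labelled 0 members were called in either comparison, where 0.0354% (cKO) and 0.0557% (WT) of all genes were called.

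**Figure D2:**
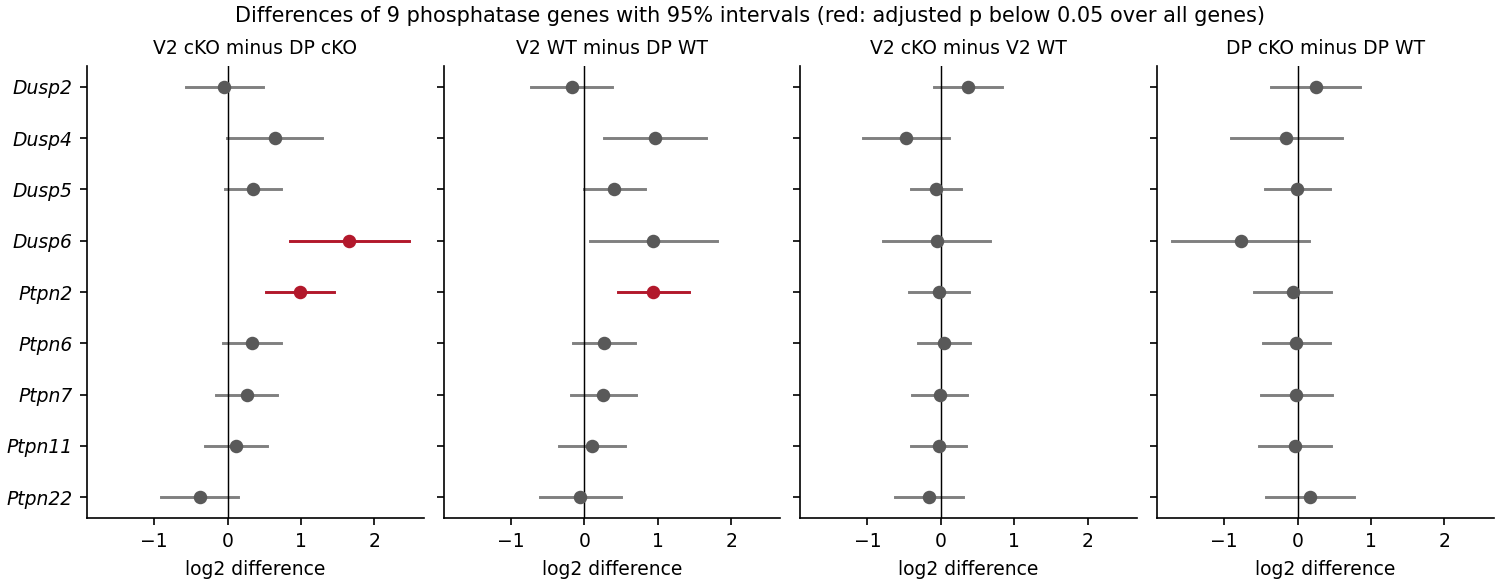
Log2 difference of each of the 9 genes with its 95% interval from limma over 11 arrays, for V2 against DP in each genotype and for cKO against WT in each population. Red marks an adjusted p under 0.05 over all genes: Ptpn2 in both comparisons of V2 with DP and Dusp6 in that of cKO cells.

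Dusp6 encodes the cytoplasmic phosphatase that is specific for ERK. Its log2 intensity was 8.57, 10.27, 9.20 and 9.29 in V2 cKO arrays, against 7.58 and 7.78 in DP cKO arrays. It was 9.39, 8.95 and 9.77 in V2 WT arrays, against 8.75 and 8.15 in DP WT arrays. Every V2 array thus lay above every DP array of its own genotype, while the lowest V2 array, cKO replicate 4 (V2imm), lay below DP WT replicate 3. The difference between V2 cKO and DP cKO was 1.65 (SE 0.37, 95% interval 0.84 to 2.46), a 3.15-fold higher level, with a limma adjusted p of 0.0188. Between V2 WT and DP WT it was 0.94 (SE 0.40, 95% interval 0.08 to 1.80), which did not pass (limma adjusted p = 0.287). In bulk samples of sorted cells, more RNA per cell and a larger share of cells that express a gene cannot be told apart. Within the title sets the cKO difference was 1.74 in V2imm (limma adjusted p = 0.0591) and 1.57 in immV2 (limma adjusted p = 0.00545). The WT difference was 0.72 in V2imm and, with 1 WT array, 1.31 in immV2 (limma adjusted p = 0.039). Leaving out DP cKO replicate 3 or 4 ended the cKO call (limma adjusted p = 0.2 and 0.111), and so did fitting only the arrays compared (0.118) or all 13 arrays (difference 1.24, adjusted p = 0.525). Leaving out V2 cKO replicate 5 (V2imm), the highest array, gave 1.23 in cKO cells and 1.03 in WT cells, both called (limma adjusted p = 0.00245 and 0.00777).

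Ptpn2 encodes the phosphatase known as TC-PTP, which acts on Lck, Fyn, the Janus kinases and STAT factors. Its log2 intensity was 9.68, 9.65, 9.69 and 9.69 in V2 cKO arrays and 9.93, 9.53 and 9.66 in V2 WT arrays. In DP arrays it was 8.51 and 8.88 in cKO and 8.44 and 9.08 in WT. The ranges of V2 and DP arrays did not overlap, and the 4 V2 cKO arrays lay closer together than any other group (SD 0.02). The difference was 0.99 (SE 0.21, limma adjusted p = 0.0137) in cKO cells, a 1.98-fold higher level in V2, and 0.94 (SE 0.23, limma adjusted p = 0.0288) in WT cells, 1.92-fold. Within the title sets it was 0.97 (V2imm) and 1.0 (immV2) in cKO and 0.97 (V2imm) and 0.90 (immV2) in WT cells, with adjusted p from 0.0581 to 0.167 in these smaller limma fits. The call was lost with all 13 arrays (0.64 in cKO, 0.76 in WT). In WT it was also lost with only the groups compared (0.93, limma adjusted p = 0.0519). It was lost in WT without any 1 of 5 V2 arrays, the 3 WT arrays and the cKO arrays with immV2 titles (limma adjusted p from 0.051 to 0.127). The difference was 0.80 in cKO without DP cKO replicate 3 and 0.62 in WT without DP WT replicate 3, and neither passed. The dimmer of the 2 Ptpn2 probe sets was 7.19, 7.23, 7.44 and 7.24 in V2 cKO, 7.31, 7.24 and 7.44 in V2 WT, 6.73 and 7.21 in DP cKO, and 6.77 and 6.92 in DP WT arrays. With the mean of both probe sets the difference was 0.65 in cKO cells (limma adjusted p = 0.0549) and 0.72 in WT cells (limma adjusted p = 0.0454).

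Dusp5 encodes the nuclear phosphatase specific for ERK. Its log2 intensity was 9.10, 9.51, 9.15 and 9.18 in V2 cKO arrays and 9.28, 9.22 and 9.41 in V2 WT arrays. It was 8.94 and 8.83 in DP cKO and 8.96 and 8.82 in DP WT arrays. As with Ptpn2, every V2 array lay above every DP array of the fit, which held for 2 of the 9 members and for 4.79% of all genes. None of the 9 members lay below every DP array in every V2 array of the fit, which held for 689 of 19752 genes. The Dusp5 differences of 0.35 (SE 0.18) in cKO and 0.41 (SE 0.19) in WT cells did not pass (limma adjusted p = 0.436 and 0.355).

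Dusp4, a nuclear phosphatase of ERK and of the stress kinase JNK, spread widely among V2 arrays and was mostly higher with V2imm than with immV2 titles. Its log2 intensity was 8.06 and 9.54 in V2 cKO arrays with V2imm titles and 7.39 and 7.64 in those with immV2 titles. In V2 WT arrays it was 9.17 and 9.12 with V2imm titles and 8.19 with the immV2 title. V2 cKO replicate 4 (V2imm) lay below V2 WT replicate 3 (immV2), so the title sets overlapped. DP arrays were close together at 7.38 and 7.66 in cKO and 7.68 and 7.67 in WT. V2 differed from DP by 0.64 (SE 0.30) in cKO and 0.96 (SE 0.32) in WT cells, and neither passed (limma adjusted p = 0.366 and 0.136). The cKO difference was 0.92 without V2 cKO replicate 4 (V2imm), which was called (limma adjusted p = 0.0209), and 0.30 without V2 cKO replicate 5 (V2imm). The WT difference was called without either of these arrays (limma adjusted p = 0.0234 and 0.00162) and with only the groups compared (limma adjusted p = 0.00669). Among V2imm titles alone the differences were 1.28 in cKO and 1.47 in WT cells, and among immV2 titles they were -0.00094 in cKO and 0.51 in WT cells.

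Dusp2, a nuclear phosphatase of ERK induced in activated lymphocytes, was mostly lower with V2imm than with immV2 titles. Its log2 intensity was 8.11 and 8.82 in V2 cKO arrays with V2imm titles and 9.20 and 9.49 with immV2 titles. In V2 WT arrays it was 8.23 and 8.18 with V2imm titles and 8.80 with the immV2 title. DP cKO arrays had 9.09 and 8.80 and DP WT arrays 9.05 and 8.36, inside the span of the V2 arrays. The V2 minus DP difference was -0.04 (SE 0.24) in cKO and -0.17 (SE 0.26) in WT cells. Markers of macrophages and dendritic cells also moved with the title sets. Of 8 such genes, 7 (Cd74, H2-Aa, Csf1r, Lyz2, Adgre1, C1qa and Cd68) were higher in all V2imm than in all immV2 arrays of the fit. How many of all genes separate the title sets in this way was not counted. The margin was narrow for Csf1r and for C1qa (lowest V2imm value 6.42, highest immV2 value 6.39). Adgre1 lay below the lower quartile of log2 intensities on each of these arrays. The summed intensity of all 8 genes was 1084 to 4489 in V2imm arrays. It was 549.6 to 847.4 in immV2 and 574.6 to 662.8 in DP arrays, and intensities have no true zero. The part of these markers in the Dusp4 and Dusp2 values was not tested.

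**Figure D3:**
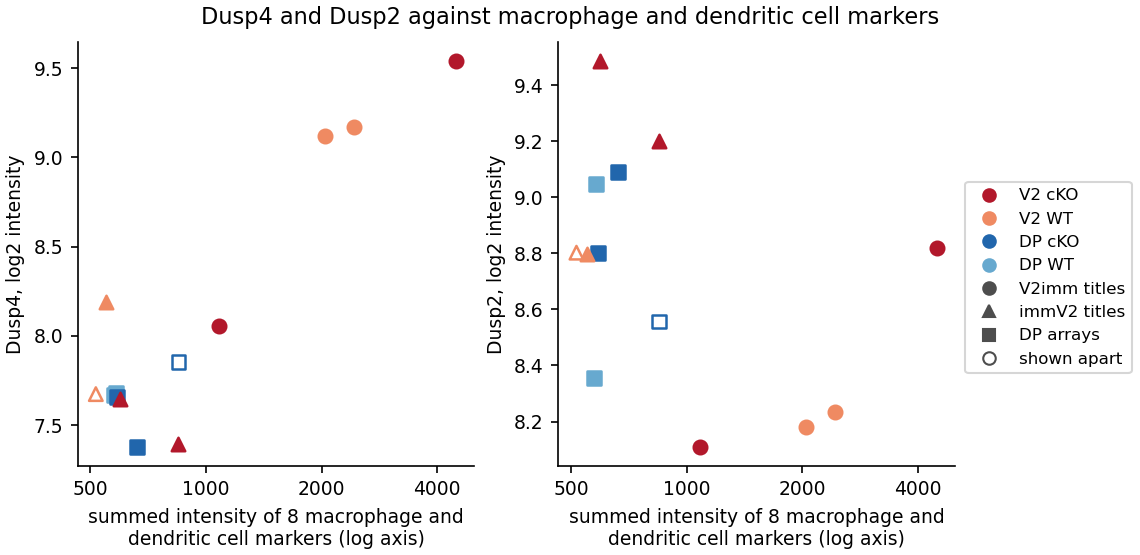
Log2 intensity of Dusp4 (left) and Dusp2 (right) against the summed intensity of 8 macrophage and dendritic cell markers on a log axis; each point is 1 of 13 arrays, with groups by colour, title sets by shape and the 2 arrays shown apart hollow. The 4 V2imm arrays have the highest sums, 1084 to 4489, and 3 of them the highest Dusp4 values, 9.12 to 9.54.

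None of the remaining tyrosine phosphatases passed the test between the populations. Ptpn6 encodes SHP-1 and Ptpn11 encodes SHP-2, related phosphatases recruited by phosphorylated receptors, of which SHP-1 mainly damps signalling and SHP-2 also promotes Ras activation. Ptpn6 was 9.36, 9.77, 9.99 and 9.82 in V2 cKO and 9.67, 9.59 and 9.69 in V2 WT arrays, against 9.48 and 9.33 in DP cKO and 9.34 and 9.50 in DP WT arrays. Only V2 cKO replicate 4 (V2imm) lay within the DP range for this gene, and the differences of 0.33 (SE 0.18) in cKO and 0.27 (SE 0.20) in WT cells did not pass. Ptpn11 was 8.83, 9.42, 9.06 and 9.03 in V2 cKO and 9.21, 8.92 and 9.21 in V2 WT arrays, against 8.95 and 9.0 in DP cKO and 8.95 and 9.06 in DP WT arrays. Its differences were 0.11 (SE 0.19, 95% interval -0.31 to 0.53) in cKO and 0.11 (SE 0.21, 95% interval -0.34 to 0.56) in WT cells.

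Ptpn7 encodes HePTP, a phosphatase of blood cells that binds ERK and p38 directly. It was 10.83, 11.32, 11.14 and 10.87 in V2 cKO and 11.17, 11.10 and 10.97 in V2 WT arrays, against 10.80 and 10.77 in DP cKO and 10.64 and 10.96 in DP WT arrays. V2 cKO replicate 4 of either title set lay below DP WT replicate 5, so the populations overlapped, with differences of 0.26 (SE 0.19) in cKO and 0.26 (SE 0.21) in WT cells. Ptpn22, which acts with the kinase Csk on Lck and Zap70, was the member with the lowest V2 minus DP difference in cKO cells. It was 8.65, 9.52, 9.79 and 9.37 in V2 cKO and 9.29, 9.03 and 9.87 in V2 WT arrays, against 9.87 and 9.56 in DP cKO and 9.62 and 9.48 in DP WT arrays. The DP arrays lay inside the range of the V2 arrays, and the differences of -0.38 (SE 0.24, 95% interval -0.90 to 0.14) in cKO and -0.05 (SE 0.26) in WT cells did not pass. With V2imm titles alone they were -0.63 in cKO and -0.39 in WT cells, and with immV2 titles alone -0.13 and 0.32, so the sign in WT cells turned between the title sets. Of the 4 known miR-181a targets, Dusp6 was called in cKO cells and Dusp5 lay higher in every V2 array without passing the test, while Ptpn11 and Ptpn22 overlapped between the populations and did not pass.

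None of the 9 genes passed the test between arrays labelled Sox4 cKO and WT in either population. Between V2 cKO and V2 WT 0 of 19752 genes (0%) were called, with 757 at an unadjusted p under 0.05 and none of these among the members. The largest differences of members were -0.48 (SE 0.27, 95% interval -1.06 to 0.11) for Dusp4 and 0.37 (SE 0.21, 95% interval -0.09 to 0.84) for Dusp2, and the other 7 lay between -0.16 (Ptpn22) and 0.05 (Ptpn6). For 0 of the 9 members did the ranges of V2 cKO and V2 WT arrays not overlap, which was so for 3.45% of all genes. Within the V2imm and immV2 titles the Dusp4 difference was -0.35 and -0.67, and that of Dusp2 was 0.26 and 0.55. V2 cKO replicate 5 (V2imm) had the highest Dusp4 of all arrays. Without it the Dusp4 difference was -0.88 and was called (limma adjusted p = 0.0438). In that fit 44 of 19752 genes were called, 11 higher and 33 lower, and 3132 had an unadjusted p under 0.05. Without V2 cKO replicate 4 (V2imm) the Dusp4 difference was -0.14 (limma adjusted p = 0.898), where 0 genes were called. The Dusp2 difference was 0.22 without replicate 5 and 0.58 without replicate 4, and that of Dusp6, -0.06 in the fit, was -0.56 and 0.29. V2 cKO replicate 5 (V2imm) also had the highest macrophage and dendritic cell sum, 4489. The V2 markers Sox13, Etv5, Maf and Blk, 4 of 6, were lower in every V2 cKO than in every V2 WT array, and their part in these values was not tested.

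Between DP cKO and DP WT 0 of 9 members were called, where 0.0253% of all genes were called and 535 genes, no member among them, had an unadjusted p under 0.05. The largest difference was that of Dusp6, -0.77 (SE 0.43, 95% interval -1.71 to 0.16), and it was -0.47 without DP WT replicate 3 and -1.07 without DP WT replicate 5. Both DP cKO arrays (7.58 and 7.78) lay below both DP WT arrays (8.75 and 8.15), and with 2 arrays against 2 the ranges did not overlap for 29.8% of all genes, so that Dusp6 and Dusp4 as 2 of 9 are read against that background. With the third array labelled DP cKO, at 8.92, the difference was -0.36 (SE 0.58). Skeletal muscle markers were higher in DP cKO arrays, 5 of 7 in both arrays, with sums of 1621 to 2700 against 1003 to 1432 in DP WT arrays. B cell markers summed to 1456 to 1555 in DP cKO against 1049 to 1072 in DP WT arrays. Of 5 such genes, 1 (Cd79b) was higher and 2 (Ms4a1 and Pax5) were lower in both cKO arrays. The part of muscle or B cell markers in the Dusp6 values was not tested. The genotype effect in V2 minus that in DP was called for 0 of 19752 genes (0%), with 372 at an unadjusted p under 0.05. For Dusp6 it was 0.71 (SE 0.55, 95% interval -0.47 to 1.90).

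Among the 7 V2 arrays of the fit, Dusp6 varied together with Dusp5 and Ptpn11. Pearson's r was 0.969 for Dusp6 with Ptpn11 (exact permutation p = 7.937e-04, adjusted p = 0.0286 over 36 pairs) and 0.928 for Dusp6 with Dusp5 (exact permutation p = 0.00238, adjusted p = 0.0429). Spearman's rho was 0.929 (exact permutation p = 0.00675, adjusted p = 0.121) and 0.893 (exact permutation p = 0.0123, adjusted p = 0.148), and 0 of 36 pairs passed by rank. All permutations in this section shuffled the 7 arrays freely over genotype and title set, so their p-values allow for neither. Without the 2 arrays farthest from the median, of Dusp6 in the pair with Ptpn11 and of Dusp5 in the other pair, r was 0.877 with Ptpn11 and 0.681 with Dusp5. Without V2 cKO replicate 5 (V2imm), the highest array for all 3 genes, r over the other 6 was 0.936 with Ptpn11 and 0.846 with Dusp5, on the values as deposited. The upper quartile of intensity was lowest, at 332.7, in the V2 array with the lowest values of all 3 genes, V2 cKO replicate 4 (V2imm), and highest, at 426.2, in V2 cKO replicate 5 (V2imm). Of the 5 arrays between them, the cKO arrays with immV2 titles had 412.4 and 414.5 and V2 WT replicate 5 (V2imm) 357.3. Both of these cKO arrays had less Dusp5 than that WT array, and more Dusp6 and Ptpn11. The part of array intensity in these correlations was not tested. Quantile normalisation was also done, over the 11 arrays of the fit. In the 7 V2 arrays r was then 0.784 with Ptpn11 (exact permutation p = 0.0361, unadjusted) and 0.365 with Dusp5 (exact permutation p = 0.442). Both of these checks were chosen after seeing the data. The title sets, with 4 and 3 arrays, were too small for an r of their own.

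**Figure D4:**
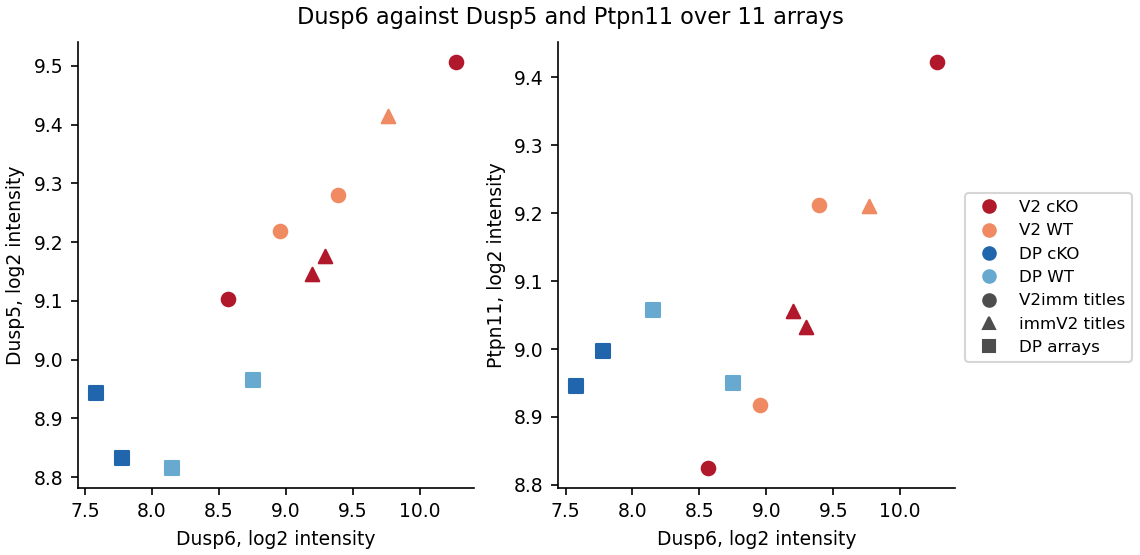
Log2 intensity of Dusp5 (left) and Ptpn11 (right) against that of Dusp6 in the 11 arrays of the fit, with groups by colour and title sets by shape. V2 arrays line up from V2 cKO replicate 4 (V2imm), Dusp6 at 8.57, to V2 cKO replicate 5 (V2imm) at 10.27, while DP arrays lie at 8.75 or below.

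The 2 arrays shown apart resembled the opposite population in several of the 9 genes. DP cKO replicate 5 had values within the range of V2 but outside that of DP for 6 members, among them Dusp6 at 8.92 and Ptpn2 at 9.75, and for none the reverse. V2 WT replicate 5 (immV2) had Dusp6 at 7.78 and Ptpn2 at 8.98, within the DP range alone, and Ptpn7 at 11.13 and Ptpn11 at 9.23, within the V2 range alone. Its Dusp5, 8.76, was below both ranges.

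The genes whose log2 values over the 11 arrays were most like those of a member were listed by Pearson's r as a description, since the arrays share their populations and title sets. For Dusp6 they were Tifab (0.967) and Mfge8 (0.964), and for Dusp5 Klhdc2 (0.967) and Tifab (0.965). For Dusp4 they were 1110051M20Rik (0.966) and Rxrg (0.962), and for Dusp2 Cd52 (0.959) and Pts (0.958). For Ptpn2 they were Tle4 (0.978) and Phtf2 (0.972), for Ptpn22 Abcg1 (0.967) and Pramel12 (0.946), and for Ptpn6 Mob3a (0.953) and Phf11c (0.949). The highest values for Ptpn7 were 0.959 (Pgap6) and 0.935 (Nmrk1), and for Ptpn11 0.921 (D11Wsu47e) and 0.916 (Zscan22).

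Other phosphatases of the same pathway differed between V2 and DP in both directions. Of 11 other MAP kinase phosphatase genes, 1 was called higher in V2 cKO than in DP cKO cells, and 1 higher and 1 lower in V2 WT than in DP WT cells. Dusp22, a small phosphatase that acts on Lck, was 8.04, 8.35, 8.35 and 8.56 in V2 cKO and 8.51, 8.13 and 8.18 in V2 WT arrays, against 7.22 and 7.26 in DP cKO and 7.19 and 7.36 in DP WT arrays. It rose in V2 by 1.09 in cKO and by 1.02 in WT cells (limma adjusted p = 0.00205 and 0.00551). Dusp10, which acts on JNK and p38, had a V2 minus DP difference of -0.57 in cKO cells, which did not pass, and fell by 0.78 in V2 WT cells (limma adjusted p = 0.0318). Of 12 other tyrosine phosphatase genes of T cells, 3 were called higher in V2 cKO and 4 in V2 WT cells, and 0 lower. Ptpn12, which acts on cytoskeletal adaptors, was 9.67, 9.38, 8.83 and 8.84 in V2 cKO and 9.69, 9.47 and 9.47 in V2 WT arrays, against 7.10 and 7.58 in DP cKO and 8.04 and 8.84 in DP WT arrays. It rose by 1.84 in cKO and 1.03 in WT cells (limma adjusted p = 4.287e-04 and 0.0376). Ptpn3 rose by 1.6 in cKO and 1.51 in WT cells, and Ubash3b, which encodes the Zap70 phosphatase Sts-1, by 1.03 and 0.85. Both genes split by title set in the arrays of the fit, in opposite directions. Ptpn3 ran from 8.59 to 9.35 under V2imm titles, above its immV2 span of 7.49 to 8.26. Ubash3b ran from 6.64 to 7.20 under V2imm titles, below its immV2 span of 7.58 to 8.39. Its lowest V2 array, WT replicate 5 (V2imm) at 6.64, lay below DP cKO replicate 4 at 6.70. Ptprj had a difference of 0.36 in cKO cells, which did not pass, and was called in WT cells at 1.0 (limma adjusted p = 0.0424).

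Upstream of ERK, 0 of the 13 measured genes of the Ras to ERK cascade were called in either population comparison, and the median differences were 0.19 in cKO and 0.30 in WT cells. Differences lay above 0 for 13 of 13 in cKO and 12 of 13 in WT cells, against 9499 and 8895 of all 19752 genes, and some of the 13 were far smaller than their standard errors. Of 10 measured kinases and factors that the members dephosphorylate, Fyn alone was called in each comparison, by 1.10 in cKO and 0.99 in WT cells (limma adjusted p = 0.0149 and 0.0426). Downstream, of 20 genes known to be induced by ERK, 2 were called higher and 1 lower in V2 in each genotype. Etv5, an ETS factor and also 1 of the V2 markers above, was 10.73 to 11.85 in V2 cKO and 11.89 to 12.20 in V2 WT arrays, against 6.41 to 6.57 in DP cKO and 6.60 to 6.64 in DP WT arrays. It rose by 4.72 in cKO and 5.39 in WT cells. Phlda1 fell by 1.04 in V2 cKO and by 1.78 in V2 WT cells (limma adjusted p = 0.0395 and 0.00194), and Myc had a difference of 0.42 in cKO cells, which did not pass (limma adjusted p = 0.322), and rose by 1.49 in WT cells (limma adjusted p = 5.202e-04).

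**Figure D5:**
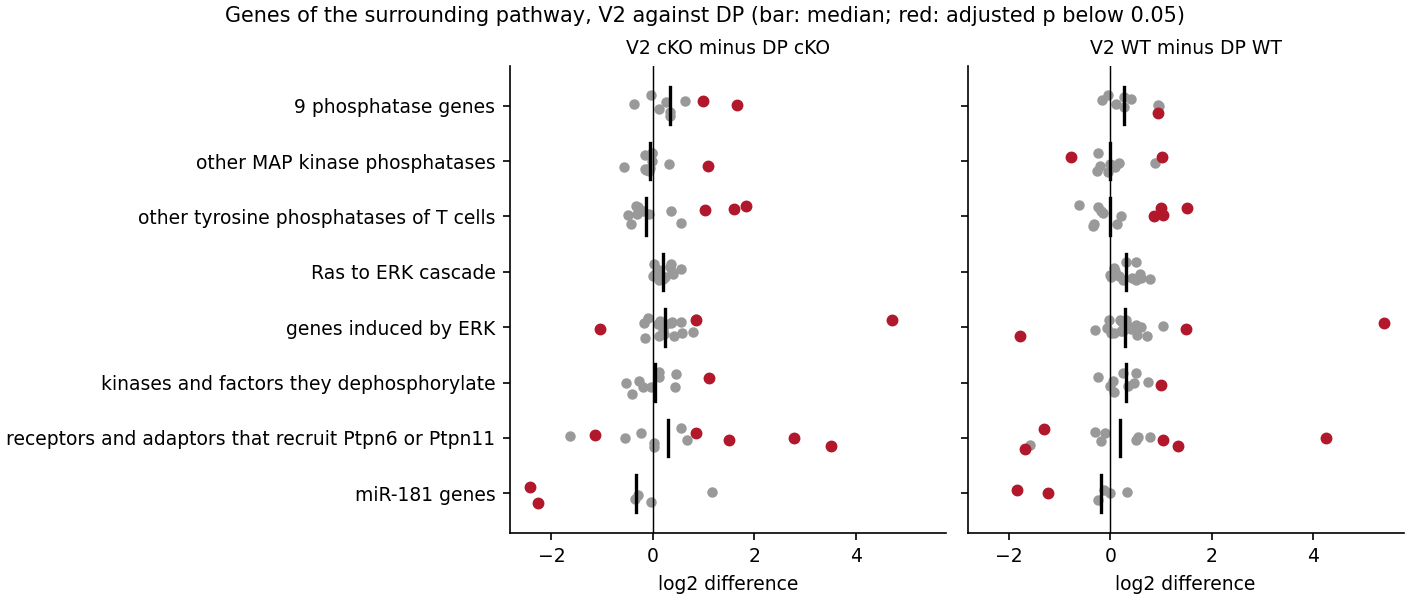
Log2 difference of V2 against DP in cKO (left) and WT cells (right) for the 9 phosphatase genes and 7 further lists of the pathway; each point is 1 gene, the bar is the list's median and red marks an adjusted p under 0.05 from limma over all genes. The points furthest from 0 are Etv5 and Pdcd1 above it and Mir181a-1 and Mir181b-1 among those below it.

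Receptors and adaptors that recruit SHP-1 or SHP-2 differed between the populations in both directions. Of 12 such genes, 4 were called higher and 1 lower in V2 cKO against DP cKO, and 3 higher and 2 lower in V2 WT against DP WT. Pdcd1, the inhibitory receptor PD-1, was 9.98, 11.20, 11.28 and 10.82 in V2 cKO and 11.24, 11.17 and 11.45 in V2 WT arrays, against 7.33 and 7.30 in DP cKO and 6.98 and 7.22 in DP WT arrays. It rose by 3.50 in cKO and 4.25 in WT cells (limma adjusted p = 4.523e-06 and 1.485e-06). Cd72 rose by 1.5 in cKO and 1.03 in WT cells. Themis, an adaptor that binds SHP-1 in DP thymocytes, fell by 1.13 in cKO and by 1.31 in WT cells (limma adjusted p = 0.00311 and 0.00182). Btla, an inhibitory receptor that binds both phosphatases, was 8.97, 8.57, 8.85 and 8.35 in V2 cKO arrays against 7.28, 6.88 and 7.48 in V2 WT arrays. All V2 cKO arrays lay higher, by 1.46 in the fit, which came closest of these lists to passing between genotypes (limma adjusted p = 0.0572). In the genotype comparisons 0 genes of the 7 lists were called, and the smallest adjusted p in DP was that of Myc (difference 0.91, limma adjusted p = 0.515). With all 13 arrays as labelled, 0 genes of the 7 lists were called between V2 cKO and DP cKO. Between V2 WT and DP WT 1 gene was then called, as higher, among those induced by ERK, and 0 in the other lists.

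Probe sets of the miR-181 genes read transcripts of the locus and not the mature microRNA printed above. Mir181a-1 was 5.11, 6.01, 5.51 and 4.99 in V2 cKO and 5.49, 5.18 and 5.24 in V2 WT arrays, against 8.02 and 7.32 in DP cKO and 7.35 and 6.86 in DP WT arrays. It fell by 2.26 in V2 cKO and by 1.84 in V2 WT cells (limma adjusted p = 1.381e-04 and 0.00128). In 6 of the 7 V2 arrays it lay below the lower quartile of all log2 intensities on that array, so the size of the fall is not well measured there. Mir181b-1, which lies beside it on chromosome 1, fell by 2.43 in V2 cKO and by 1.24 in V2 WT cells (limma adjusted p = 1.285e-04 and 0.028). The other 4 miR-181 genes were not called, and none of the 6 passed between genotypes: the values with the smallest p were -0.64 (SE 0.25) for Mir181b-1 in V2, and -1.27 (SE 0.51) for Mir181b-2 and 0.56 (SE 0.30) for Mir181a-1 in DP.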

How the data were processed

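RNA of sorted thymocytes was measured on 13 Affymetrix gene arrays. What the authors deposited is 1 intensity per probe set, and per the submitters' processing notes RMA and Affymetrix Power Tools were used, with no version or build given in the sources used here. Values of 6.16 to 23800 show a linear scale, so log2 was taken. Of 24922 probe sets 21425 carried 1 symbol; per gene the one with the highest mean was kept, giving 19752 genes.

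Groups came from the titles, where KO in the V2imm titles was read as the Sox4 cKO. One limma fit (limma 3.58.1, R 4.3.3, lmFit and eBayes with trend) held the 4 group means and a title-set term over 11 arrays, with two-sided tests and Benjamini-Hochberg adjustment over all genes at 0.05. The fit was tested on simulated data. Correlations used exact permutations (Python 3.11.15, scipy 1.17.1), and figures matplotlib 3.10.9. Same-numbered arrays of V2 and DP cKO and WT deviated from their group means with r of 0.273, -0.108, 0.524 and 0.179. These r values cannot decide on pairing, since V2 group means span both title sets and DP groups have 2 arrays. The numbers were not taken as pairs.

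The members, the pathway and marker lists and the tests were chosen with earlier results of these data known. Named were all members, the 2 genes most like each, and from each list up to 3 genes with the smallest p between V2 WT and DP WT and up to 2 in each genotype comparison. Alternatives are in the closing section. RefSeq tables of GRCm38.p6 were searched for promoters of the members other than Ptpn2 and held those of 7. Target sites and proteins were not used here.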

Additional observations from a re-analysis of the deposited data

Results flagged for a closer look

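Ptpn11 in the 4 arrays labelled V2 WT had 1 value far from the rest: V2 WT replicate 5 (V2imm) was at 8.92 log2 intensity while the other 3 lay at 9.21 to 9.23, a gap of 0.945 of the group's range. One of those 3 is the immV2 array shown apart. Of 18 groups tested in this way 1 stood out, and chance gives about 1 in 20.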

How the results depend on the processing

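In 24 settings the 45 differences of the 9 genes (5 comparisons) gave 1017 values, of which 982 kept their side of the threshold, 14 newly passed, 20 no longer passed and 1 turned a stated direction. That 1 was Dusp4, V2 cKO minus DP cKO, at -0.001 with immV2 titles alone. For 28 of the 45, smaller than their standard error, no direction is stated, and 25 of these changed sign in at least 1 setting, in 101 of the 982 values. Causes of the changes were not tested.

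Members called between V2 cKO and DP cKO (2) numbered 0 with 13 arrays or V2imm titles alone, 1 with the mean of all probe sets, only the groups compared or immV2 titles alone, and 0 to 3 leaving out 1 array. Between V2 WT and DP WT (1) they numbered 0 with 13 arrays or V2imm titles alone, 2 (Dusp4, Dusp6) with only the groups compared, 4 with array weights and 0 to 3 leaving out 1 array. Between V2 cKO and V2 WT (0) they numbered 2 (Dusp2, Dusp4) with array weights and 0 to 1 leaving out 1 array. Array weights did not converge, and 1 array, V2 WT replicate 3 (immV2), had a weight of 36.3.

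Genes called between V2 cKO and DP cKO (1076) were 7 with 13 arrays, 637 without the title-set term, 2253 with array weights, 577 with only the groups compared and 480 (without DP cKO replicate 3) to 1632 (without V2 cKO replicate 4, V2imm) leaving out 1 array. Between V2 WT and DP WT (962) they were 11 with 13 arrays, 594 without the title-set term, 2320 with array weights and 477 (without DP WT replicate 3) to 1575 (without V2 cKO replicate 4, V2imm) leaving out 1 array. Between V2 cKO and V2 WT (0) they were 13 after quantile normalisation, 9 among genes above the lower quartile, 2680 with array weights and 6 with V2imm titles alone. Leaving out 1 array they were 0 to 44, the 44 without V2 cKO replicate 5 (V2imm). Between DP cKO and DP WT (5) they were 0 with 13 arrays or only the groups compared, 3 without the title-set term, 9 after quantile normalisation, 8 among genes above the lower quartile, 29 with array weights and 0 to 14 leaving out 1 array. The genotype effect in V2 minus that in DP (0) gave 48 with array weights and 0 to 4 leaving out 1 array.

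The replicate number was also used as a block within title sets, a pairing that the check above could not decide on. Genes called were then 34 for V2 cKO minus V2 WT, 8 for DP cKO minus DP WT and 4 for the difference of these, with 0 members in each. With 2 arrays a group in DP, and 1 V2 WT array with an immV2 title, a lone array was taken to vary like the rest.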
